A study of Mus musculus with 6 samples.

Results

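The neuromuscular junction is the synapse at which a motor axon drives a skeletal muscle fibre, and 10 genes that build its postsynaptic side were examined in mouse gastrocnemius, a calf muscle. They were taken by gene symbol from a table of 25344 genes and were all found there. They are the 5 subunit genes of the muscle nicotinic acetylcholine receptor (Chrna1, Chrnb1, Chrnd, Chrne and Chrng), the genes of the agrin receptor complex (Lrp4, Musk and Dok7), the receptor anchor Rapsn and the acetylcholinesterase gene Ache. The groups were littermates, with 3 RNA-seq libraries each. The HSA-NRTN mice carried a transgene for neurturin under the promoter of human alpha-skeletal actin, which is active in skeletal muscle fibres, and the WT mice were wild type and carried no transgene. No source used here gives strain, age or how many animals stand behind a library, and p-values therefore reflect only library-to-library spread. The study asks how neurturin from muscle relates to the oxidative metabolism of fibres and to the identity of the motor neurons that supply them.

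At the junction, agrin released by the nerve binds LRP4, which activates the receptor kinase MuSK, and the adaptor Dok-7 sustains that activity. Rapsyn then holds acetylcholine receptors in dense clusters under the nerve terminal, while acetylcholinesterase in the cleft ends each signal. Most of these genes are transcribed mainly by the few nuclei that lie below the synapse. After birth the receptor's gamma subunit (Chrng) is replaced by epsilon (Chrne). In denervated muscle several of these genes, subunit genes among them, are known to be transcribed again along the whole fibre. They are not named here, and no member's change in these data was tested against denervation.

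Levels are in FPKM, reads scaled by exon length and by the library's total. The length counts all annotated exons of a gene, used or not, so orders and ratios between genes are approximate. A gene compared between the groups keeps the same length. Libraries held from 27418154 (WT 1) to 50291845 (HSA-NRTN 2) reads counted in genes. Nrtn was measured at 178, 201 and 169 FPKM in HSA-NRTN libraries 1, 2 and 3, against 3.21, 1.70 and 4.33 FPKM in WT libraries 1, 2 and 3, which matches the labels. The 8 muscle fibre markers, among them Acta1 and Ckm, summed to 20752 to 23565 FPKM in HSA-NRTN and 32502 to 36370 FPKM in WT, and all were present. FPKM divides by each library's total. The authors' size factors, which correct for composition, place HSA-NRTN 0.30 lower than FPKM does relative to WT on the log2 scale. Each gene is therefore given under both scalings, and the median log2 change of the 10755 tested genes was 0.18 with FPKM and -0.05 with size factors.

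The genes did not move together. Under both scalings the receptor subunit genes Chrna1 and Chrnd rose in HSA-NRTN muscle, while the subunit gene Chrnb1 and the esterase gene Ache fell. The calls of the other members depended on the scaling or on a library, or were not reached. A total of 9 members averaged at least 1 FPKM and were tested. With FPKM, 4 of them passed as higher and 2 as lower in the HSA-NRTN libraries (limma, Benjamini-Hochberg adjusted p under 0.05). Over all tested genes 41.6% were called higher, 11.7% lower and 53.3% either way, so the members' share called is close to the background. With size factors 2 members were higher and 4 lower, against 21.1% and 29.9% of all tested genes, and 51.0% either way. The median log2 change of the 9 members was that of Rapsn, -1.4e-05, with FPKM and -0.28 with size factors. The groups' FPKM did not overlap for 7 of the 10 members (5 higher, 2 lower), against 62.1% of tested genes (47.0% higher, 15.2% lower). After rescaling they did not overlap for 7 members either (3 higher, 4 lower), against 60.0% of tested genes (24.6% higher, 35.4% lower).

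**Figure D1:**
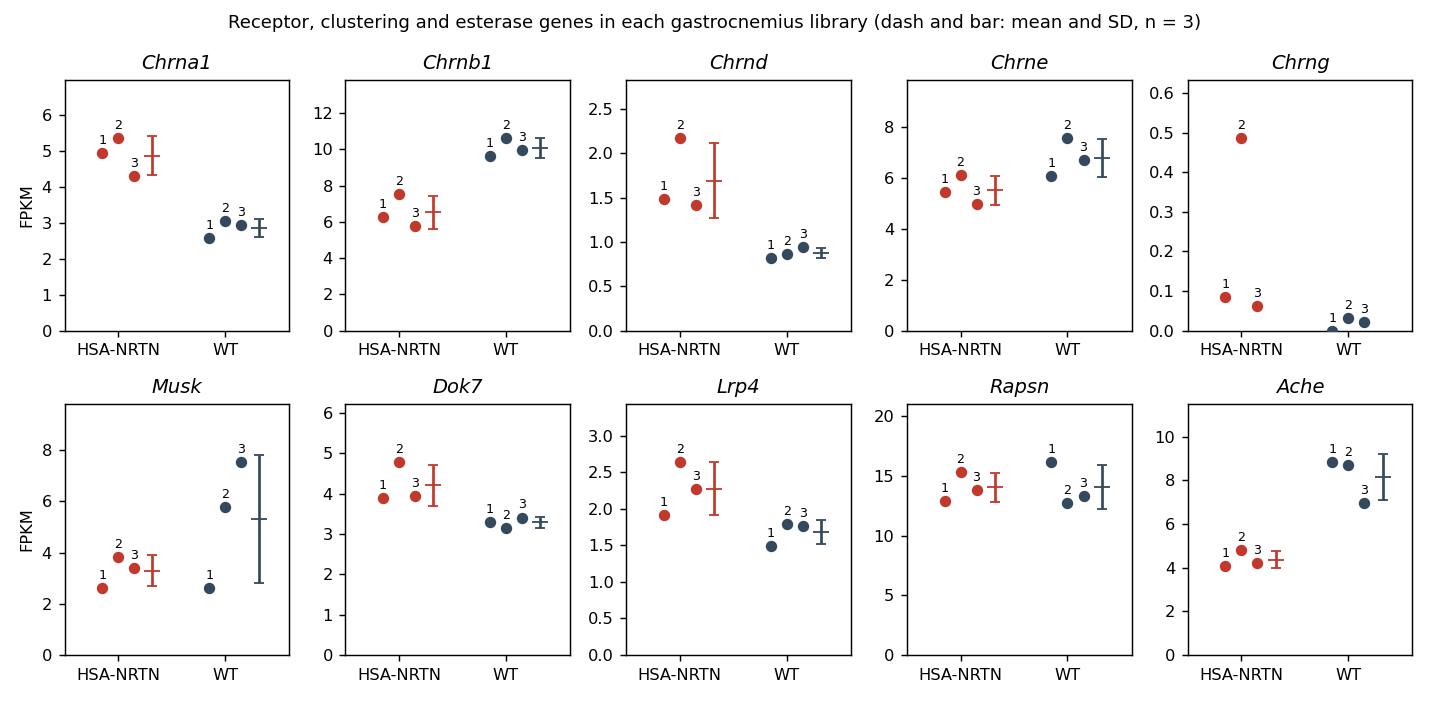
FPKM of the 10 genes in each of the 3 HSA-NRTN and 3 WT libraries, numbered as in the labels, with mean and SD to the right of each group. Mean and SD are left out for Chrng, which 1 library dominates at 0.487 FPKM. Chrna1 and Chrnd lie higher and Chrnb1 and Ache lower in every HSA-NRTN library than in any WT library.

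Chrna1 encodes the alpha subunit, which carries the acetylcholine binding sites and is used more than once in each receptor (chromosome 2, 73563215 to 73580338, GRCm38, minus strand). It was measured at 4.94, 5.36 and 4.29 FPKM in HSA-NRTN libraries 1, 2 and 3, against 2.56, 3.04 and 2.94 FPKM in WT libraries 1, 2 and 3. The lowest HSA-NRTN library lay above the highest WT library. The means were 4.86 ± 0.541 FPKM in HSA-NRTN and 2.84 ± 0.250 FPKM in WT (SD, n = 3 each), a ratio of 1.71. The change on the log2(FPKM + 1) scale was 0.61 ± 0.09 (SE; limma, adjusted p = 0.000999), and 0.37 with size factors (adjusted p = 0.0111).

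Chrnd, the delta subunit gene (chromosome 1, 87190607 to 87200070, plus strand), rose as well. It stood at 1.48, 2.18 and 1.41 FPKM in HSA-NRTN (139 to 360 reads), against 0.821, 0.868 and 0.941 FPKM in WT (74 to 109 reads). The groups did not overlap, and HSA-NRTN 2 was the highest. The ratio of means was 1.93. The log2 change was 0.51 ± 0.11 (SE; limma, adjusted p = 0.0065), and 0.35 with size factors (adjusted p = 0.0244). Quantile normalization ended the call of Chrnd (log2 change 0.22, adjusted p = 0.114).

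Chrnb1, the beta subunit gene (chromosome 11, 69784036 to 69795943, minus strand), went the other way. Its values were 6.29, 7.52 and 5.77 FPKM in HSA-NRTN and 9.61, 10.6 and 9.97 FPKM in WT, without overlap. The mean fell to 6.52 ± 0.90 FPKM in HSA-NRTN, against 10.1 ± 0.526 FPKM in WT (SD, n = 3 each), which is 64.8% of the WT mean. The log2 change was -0.56 ± 0.10 (SE; limma, adjusted p = 0.0017), and -0.83 with size factors (adjusted p = 0.00026).

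Chrne encodes the epsilon subunit of the adult receptor (chromosome 11, 70614883 to 70619216, minus strand). It was at 5.42, 6.12 and 4.98 FPKM in HSA-NRTN and 6.09, 7.58 and 6.68 FPKM in WT. With FPKM the highest HSA-NRTN library overlapped the lowest WT library, while after rescaling the groups were apart. The log2 change was -0.26 ± 0.10 (SE; limma, adjusted p = 0.0539), short of the threshold, and -0.51 with size factors, where Chrne was called lower (adjusted p = 0.0036). The call with FPKM was reached without HSA-NRTN 2 (-0.32, limma adjusted p = 0.0416) or without WT 1 (-0.32, adjusted p = 0.0311).

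Chrng, the gamma subunit gene of the fetal receptor (chromosome 1, 87204657 to 87212694, plus strand), was near the limit of detection. It had 10, 102 and 8 reads in HSA-NRTN libraries 1, 2 and 3, or 0.0840, 0.487 and 0.0629 FPKM, against 0, 4 and 3 reads in the WT libraries, or 0, 0.0305 and 0.0204 FPKM. Each HSA-NRTN library lay above each WT library, and HSA-NRTN 2 held most of the reads. In reads per library total, HSA-NRTN was 14.8 times WT with a 95% exact interval of 6.95 to 37.5, which covers counting error only. Without HSA-NRTN 2 the ratio was 4.10 (1.63 to 11.6). Chrng was below the level for testing, and with no filter it was not called (limma, log2 change 0.23, adjusted p = 0.234). In the authors' deposited table it was higher, with a log2 change of 3.29 ± 0.94 (SE, adjusted p = 0.00208).

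HSA-NRTN 2 was also the library with the highest Myog, a myogenic transcription factor, at 2.79, 5.73 and 2.95 FPKM in HSA-NRTN 1, 2 and 3 and 3.54, 2.12 and 3.13 FPKM in WT. Gdf5, a ligand of the BMP family induced in denervated muscle, had 6, 39 and 6 reads in HSA-NRTN and 2, 2 and 8 reads in WT. Both are high in the same library as Chrng and were named after their values were seen. Neither was called (limma, adjusted p = 0.359 for Myog and 0.263 for Gdf5 with no filter), and their part in the Chrng values was not tested.

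Because the subunits are assembled into a single receptor, their share of the summed subunit FPKM was compared, a measure that does not depend on how a library was scaled. The sum itself was 18.2, 21.7 and 16.5 FPKM in HSA-NRTN and 19.1, 22.2 and 20.5 FPKM in WT, so the groups overlapped with FPKM. Unlike the shares, the sum depends on the scaling. The size factors on FPKM were 1.06, 1.14 and 1.13 in HSA-NRTN and 0.905, 0.883 and 0.918 in WT. Dividing by them lowers every HSA-NRTN sum and raises every WT sum, and the HSA-NRTN sums then lie below the WT sums without overlap. Chrna1 made up 26.0 ± 1.18% of the sum in HSA-NRTN and 13.8 ± 0.445% in WT (SD, n = 3 each). Chrnd made up 8.91 ± 1.01% in HSA-NRTN and 4.27 ± 0.333% in WT. Both shares were higher in every HSA-NRTN library than in any WT library.

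Chrnb1 made up 34.7 ± 0.200% of the sum in HSA-NRTN and 49.0 ± 1.23% in WT, and lost the most in share. The share of Chrne moved less, at 29.4 ± 1.01% in HSA-NRTN and 32.9 ± 1.19% in WT. Chrng reached 2.25% in HSA-NRTN 2 and was at most 0.461% in the other HSA-NRTN libraries and 0.137% in WT. These shares are descriptions, and they concern transcripts, not receptor protein.

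**Figure D2:**
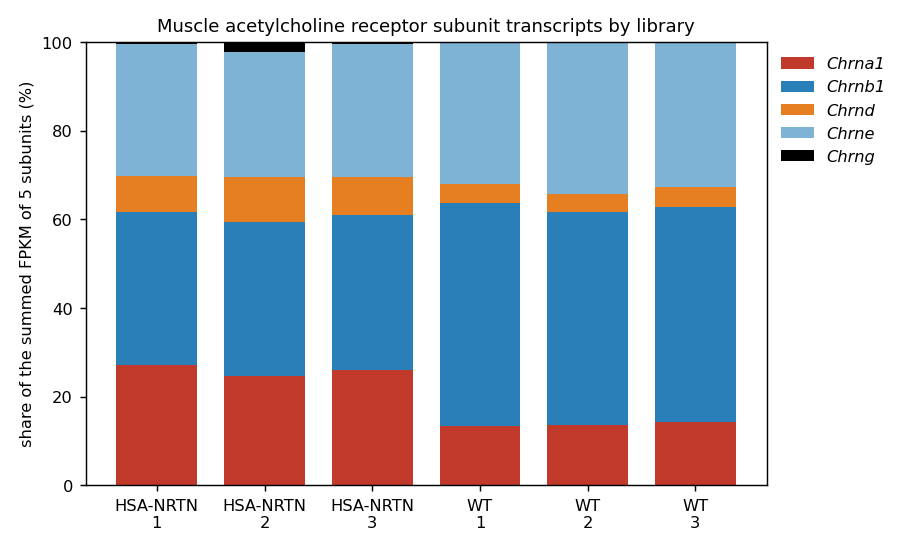
Share of each subunit gene in the summed FPKM of the 5 subunit genes, in percent, as 1 stacked bar per library (3 HSA-NRTN, 3 WT). Chrna1 takes 24.8% to 27.1% in HSA-NRTN and 13.4% to 14.3% in WT, and Chrnb1 takes 34.5% to 34.9% in HSA-NRTN and 48.0% to 50.4% in WT.

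Promoters are shown for the subunit genes other than Chrnd, because subunit genes are regulated by 2 well-known short motifs. The E-box, CANNTG, is bound by myogenic factors such as MyoD and myogenin. The N-box, CCGGAA, is bound by the ETS factor GABP at synaptic nuclei. The RefSeq table (GRCm38.p6) held a window of 250 bases before to 50 bases after the start for 7 of the 10 members. It held none for Chrnd, Rapsn and Lrp4, so the motifs of Chrnd, which also rose, could not be looked at. Capitals mark E-boxes, whose 6 letters read the same pattern on both strands, and N-boxes on either strand (CCGGAA or TTCCGG); no match overlapped another. Chrna1 rose and Chrnb1 fell under both scalings, Chrng is the gene of the fetal receptor, and Chrne is the synaptic gene of the adult receptor.
Chrna1, chr2:73580289-73580588, minus strand: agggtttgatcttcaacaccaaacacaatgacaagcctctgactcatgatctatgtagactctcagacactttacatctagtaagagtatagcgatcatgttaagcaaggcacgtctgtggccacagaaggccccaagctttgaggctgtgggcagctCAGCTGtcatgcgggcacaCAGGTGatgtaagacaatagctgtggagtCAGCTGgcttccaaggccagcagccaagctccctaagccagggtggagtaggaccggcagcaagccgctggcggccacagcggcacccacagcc
Chrng, chr1:87205561-87205860, plus strand: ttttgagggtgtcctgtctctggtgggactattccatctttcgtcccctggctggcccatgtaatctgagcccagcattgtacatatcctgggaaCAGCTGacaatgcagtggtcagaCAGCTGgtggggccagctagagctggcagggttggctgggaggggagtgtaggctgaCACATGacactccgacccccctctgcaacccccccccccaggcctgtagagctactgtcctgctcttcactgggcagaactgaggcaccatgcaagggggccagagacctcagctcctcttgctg
Chrnb1, chr11:69795888-69796187, minus strand: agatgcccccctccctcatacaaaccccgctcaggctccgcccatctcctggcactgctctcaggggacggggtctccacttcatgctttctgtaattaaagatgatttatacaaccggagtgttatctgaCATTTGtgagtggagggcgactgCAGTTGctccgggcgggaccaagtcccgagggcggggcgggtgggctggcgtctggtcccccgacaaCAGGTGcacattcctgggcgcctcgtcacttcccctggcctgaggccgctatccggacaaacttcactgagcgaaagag
Chrne, chr11:70619145-70619444, minus strand: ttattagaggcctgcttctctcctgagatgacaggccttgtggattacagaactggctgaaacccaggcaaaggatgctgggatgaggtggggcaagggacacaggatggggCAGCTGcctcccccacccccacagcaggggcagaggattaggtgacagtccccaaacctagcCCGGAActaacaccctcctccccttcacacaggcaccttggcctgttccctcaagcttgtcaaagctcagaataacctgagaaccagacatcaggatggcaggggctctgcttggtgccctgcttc

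Chrna1, Chrng and Chrnb1 each held 3 E-boxes and Chrne held 1. Among 32817 RefSeq promoters of this length 72.3% held at least 1 E-box and 17.6% held 3 or more. Chrna1 had the form CAGCTG at -92 and -44 relative to the start, and Chrng at -155 and -132, a form present 2 or more times in 1.90% of the promoters. Chrne was the only member of the 7 with an N-box in its window, at -76, and 14.9% of all promoters held 1. Musk, the other member with 3 E-boxes, had 1 of the form CAGCTG, at -68. The E-box of Chrne, at -138, had this form too, and 16.3% of all promoters held at least 1. The window of Chrng follows RefSeq, whose start lies downstream of the start in the deposited table. Matching letters are a description of the window and do not show that a factor binds there.

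Ratios between members within a library are likewise free of the library's scaling. For 8 pairs the ratio could be formed in every library, and Chrng, with no reads in WT 1, was left out of its pairs. With 3 against 3 libraries the smallest p of the exact permutation test is 0.10, and 6 of the 8 pairs reached it (adjusted over the pairs, exact permutation p = 0.133), so no pair could pass 0.05. For each FPKM of Chrna1 there were 1.27, 1.40 and 1.34 FPKM of Chrnb1 in HSA-NRTN, against 3.75, 3.51 and 3.39 in WT. That ratio was 2.65-fold lower in HSA-NRTN. Chrne over Chrna1 was 1.10, 1.14 and 1.16 in HSA-NRTN, against 2.38, 2.50 and 2.28 in WT, and was 2.10-fold lower.

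The groups were far apart in both ratios compared with the spread within them. Chrnd over Chrna1 stood at 0.300, 0.406 and 0.329 in HSA-NRTN, against 0.320, 0.286 and 0.320 in WT. Here the groups overlapped, and the difference of mean log2 ratios was 0.15 (exact permutation p = 0.40). The ratio of Rapsn to Chrna1 was 2.61, 2.86 and 3.23 in HSA-NRTN, against 6.31, 4.19 and 4.54 in WT. Receptor anchor and alpha subunit transcripts thus stood in a ratio 1.71-fold lower in HSA-NRTN.

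**Figure D3:**
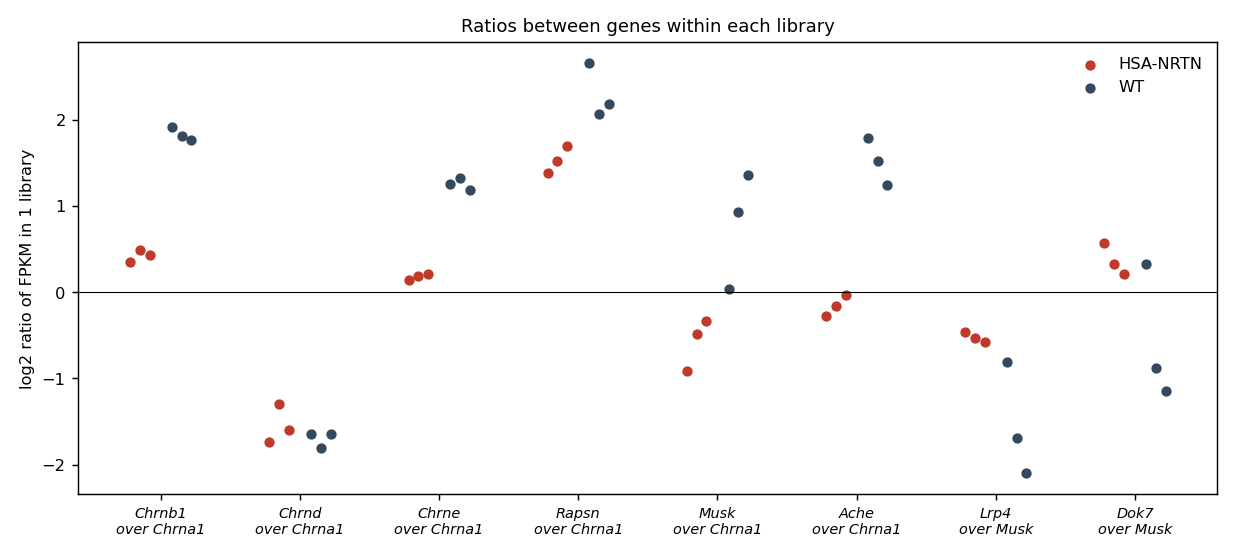
The log2 ratio of FPKM between 2 members within each library, with 3 HSA-NRTN points left of 3 WT points for each of 8 pairs. Chrnb1, Chrne and Ache relative to Chrna1 are lower in all HSA-NRTN libraries, whereas Chrnd relative to Chrna1 overlaps.

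In the agrin receptor complex the changes were smaller or depended on a library. Lrp4, the agrin receptor (chromosome 2, 91457511 to 91513779, plus strand), was at 1.91, 2.64 and 2.27 FPKM in HSA-NRTN and 1.5, 1.79 and 1.76 FPKM in WT. The groups did not overlap, and the log2 change was 0.28 ± 0.10 (SE; limma, adjusted p = 0.0418). With size factors it was 0.09 and not called (adjusted p = 0.439). Leaving out HSA-NRTN 2 or 3 or any WT library ended the call too (log2 changes from 0.21 to 0.31, limma adjusted p from 0.0684 to 0.143).

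Dok7, the adaptor of MuSK (chromosome 5, 35056766 to 35087839, plus strand), behaved alike. It was measured at 3.89, 4.78 and 3.94 FPKM in HSA-NRTN and 3.30, 3.14 and 3.40 FPKM in WT. Its log2 change was 0.28 ± 0.09 (SE; limma, adjusted p = 0.0258) with FPKM. Rescaling took it to 0.04 and ended the call (limma, adjusted p = 0.657). Without HSA-NRTN 2 or WT 2 the call ended as well (log2 changes 0.20 and 0.25, limma adjusted p = 0.0888 and 0.0849). Lrp4 and Dok7 were thus called higher with FPKM only. With size factors their log2 changes did not exceed their SE (limma, 0.086 ± 0.088 for Lrp4 and 0.042 ± 0.073 for Dok7), which gives no direction.

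Musk, the receptor kinase itself (chromosome 4, 58285960 to 58374303, plus strand), had a wide spread among the WT libraries. It stood at 2.62, 3.82 and 3.41 FPKM in HSA-NRTN libraries 1, 2 and 3, and at 2.63, 5.77 and 7.54 FPKM in WT libraries 1, 2 and 3. WT 1 lay among the HSA-NRTN libraries, and WT 2 and 3 above all of them. Musk was not called with FPKM (log2 change -0.48 ± 0.28, SE; limma, adjusted p = 0.176) or with size factors (-0.72, adjusted p = 0.0599). Without WT 1 it was called lower (-0.84 ± 0.15, SE; limma, adjusted p = 0.0039), and without WT 3 its log2 change was -0.22 ± 0.25 (SE; limma, adjusted p = 0.494). Set against Musk in the same library, Lrp4 stood at 0.729, 0.692 and 0.668 in HSA-NRTN and at 0.570, 0.310 and 0.234 in WT, a ratio 2.01-fold higher without overlap (exact permutation p = 0.10). Dok7 over Musk was 1.48, 1.25 and 1.16 in HSA-NRTN and 1.26, 0.545 and 0.452 in WT, with overlap (exact permutation p = 0.30). In the authors' deposited table the log2 change of Musk was -1.0 ± 0.44 (SE, adjusted p = 0.0631).

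WT 1 also stood apart in other muscle genes, named after their values were seen. Myh2, the myosin heavy chain of oxidative fast fibres, was at 312 FPKM in WT 1, against 572 and 605 FPKM in WT 2 and 3. In HSA-NRTN libraries 1, 2 and 3 Myh2 was at 812, 1013 and 885 FPKM. For Myh2, unlike Musk, WT 1 was thus the WT library farthest from HSA-NRTN. Sntb1, a syntrophin of the postsynaptic scaffold, was at 1.23 FPKM in WT 1, against 2.66 and 2.40 FPKM in WT 2 and 3. It was at 1.72, 1.82 and 1.37 FPKM in HSA-NRTN libraries 1, 2 and 3. Whether these and Musk share a source of variation was not tested.

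Rapsn, the gene of rapsyn (chromosome 2, 91035620 to 91045729, plus strand), had the highest mean FPKM of the members in both groups. It was at 12.9, 15.3 and 13.9 FPKM in HSA-NRTN and 16.2, 12.7 and 13.3 FPKM in WT. The groups overlapped fully, with means of 14.0 ± 1.24 FPKM in HSA-NRTN and 14.1 ± 1.84 FPKM in WT (SD, n = 3 each). The log2 change was -1.4e-05 ± 0.10 with FPKM (SE; limma, adjusted p = 1.00), and -0.28 with size factors, where Rapsn was called lower (adjusted p = 0.0385).

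Ache, the gene of acetylcholinesterase (chromosome 5, 137287519 to 137294466, plus strand), had the largest change of the 9 tested members on the log2(FPKM + 1) scale. That scale understates the change of low genes such as Chrnd. It was at 4.08, 4.80 and 4.20 FPKM in HSA-NRTN and 8.84, 8.71 and 6.95 FPKM in WT. The highest HSA-NRTN library lay below the lowest WT library. The mean fell to 4.36 ± 0.389 FPKM in HSA-NRTN, against 8.16 ± 1.06 FPKM in WT (SD, n = 3 each), which is 53.4% of the WT mean. The log2 change was -0.77 ± 0.10 (SE; limma, adjusted p = 0.00050), and -1.02 with size factors (adjusted p = 0.00014). Relative to Chrna1, Ache stood at 0.826, 0.896 and 0.978 in HSA-NRTN, against 3.45, 2.87 and 2.37 in WT, a ratio 3.19-fold lower in HSA-NRTN (exact permutation p = 0.10, the smallest possible). The exons of Ache share 2.12% of their length with an annotated gene on the opposite strand, and the labels do not say whether strand was kept.

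**Figure D4:**
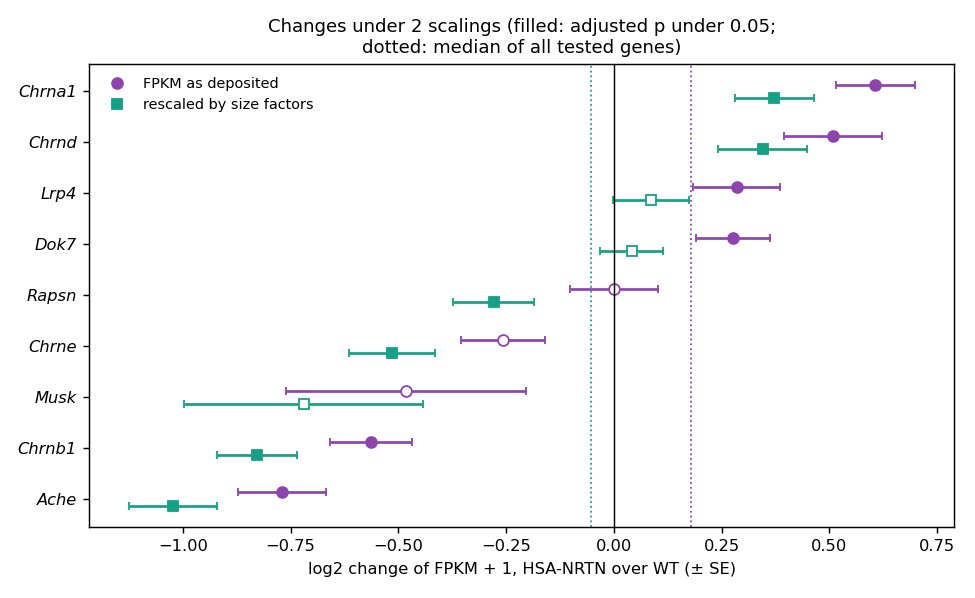
Log2 change of FPKM + 1, HSA-NRTN over WT, with SE for the 9 tested members under FPKM as deposited (circles) and after rescaling by size factors (squares). Filled symbols have an adjusted p under 0.05, and the dotted lines are the medians of all tested genes (0.18 and -0.05). Chrna1 and Chrnd lie right and Chrnb1 and Ache left of 0 under both, with Ache at -0.77 and -1.02.

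The order of the levels differed between the groups. In HSA-NRTN it ran Rapsn, Chrnb1, Chrne, Chrna1, Ache, Dok7, Musk, Lrp4, Chrnd and Chrng. Neighbours from Chrnb1 to Dok7 overlapped in range, as did Musk with Lrp4 and Lrp4 with Chrnd. In WT it ran Rapsn, Chrnb1, Ache, Chrne, Musk, Dok7, Chrna1, Lrp4, Chrnd and Chrng, where the neighbours from Ache to Dok7 overlapped in range and the others did not. Ache was thus the third in mean level in WT and the fifth in HSA-NRTN. The authors' deposited table gave 3 members higher (Chrna1, Chrnd and Chrng), 4 lower (Chrnb1, Chrne, Rapsn and Ache) and 3 not past 0.05, against 18.0% higher and 17.8% lower of the genes with an adjusted p.

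RNA of whole muscle cannot tell fewer synaptic nuclei from less transcript per nucleus. Transcripts of motor axons and nerve terminals were near 0 in all libraries: the 9 listed in the table summed to 0.363 to 0.641 FPKM in HSA-NRTN and 0.317 to 0.666 FPKM in WT. The 10 Schwann cell markers summed to 57.7 to 74.9 FPKM in HSA-NRTN and 41.6 to 42.3 FPKM in WT, and all 6 tested were called higher (3 with size factors). The 6 macrophage markers summed to 58.1 to 66.7 FPKM in HSA-NRTN and 14.9 to 18.2 FPKM in WT, and all were called higher under both scalings. Of all tested genes 41.6% were called higher with FPKM and 21.1% with size factors. The 5 satellite cell markers summed to 8.86 to 10.3 FPKM in HSA-NRTN and 9.29 to 12.2 FPKM in WT. The part of these cells in the members' values was not tested.

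The partners of the esterase did not all follow it. Prima1, which anchors acetylcholinesterase in membranes, fell to 0.561 ± 0.238 FPKM in HSA-NRTN, against 1.82 ± 0.252 FPKM in WT (SD, n = 3 each; limma, log2 change -0.86, adjusted p = 0.00081; -1.01 with size factors). Colq, the collagen tail that fixes the enzyme in the synaptic basal lamina, was at 2.75 ± 0.396 FPKM in HSA-NRTN and 2.94 ± 0.400 FPKM in WT (limma, log2 change -0.07, adjusted p = 0.596; -0.29 with size factors, adjusted p = 0.0496). Bche, the related butyrylcholinesterase, was at 2.14 ± 0.160 FPKM in HSA-NRTN and 2.17 ± 0.306 FPKM in WT (limma, log2 change -0.01, adjusted p = 0.952). Of the 9 tested genes of basal lamina and esterase anchors, 3 were called higher (Lama4, Nid2 and Hspg2) and 1 lower, and 1 and 2 with size factors. Shares over all tested genes were 41.6% and 11.7%, and 21.1% and 29.9% with size factors. The median log2 change of the 9 was 0.12 with FPKM and -0.11 with size factors. Lama4, a laminin chain of the synaptic basal lamina and of vessels, rose under both scalings (log2 change 0.64, limma adjusted p = 0.0053).

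Of 18 tested genes that act with agrin and MuSK, 8 were called higher and 0 lower with FPKM, and 3 higher and 8 lower with size factors. All tested genes gave 41.6% higher and 11.7% lower with FPKM, and 21.1% and 29.9% with size factors. Their median log2 change was 0.10 with FPKM and -0.19 with size factors, against 0.18 and -0.05 for all tested genes. The 3 that rose under both were Fyn, Pak1 and Agrn. Agrn, the gene of agrin itself, was at 3.55 ± 0.606 FPKM in HSA-NRTN and 2.10 ± 0.0680 FPKM in WT (SD, n = 3 each; limma, log2 change 0.55, adjusted p = 0.0029; 0.33 with size factors). Pak1, a kinase activated downstream of MuSK, was at 13 ± 1.01 FPKM in HSA-NRTN and 6.58 ± 0.964 FPKM in WT. Fyn, a Src-family kinase that stabilises receptor clusters, was at 6.93 ± 0.856 FPKM in HSA-NRTN and 2.78 ± 0.194 FPKM in WT. Agrn, Pak1 and Fyn are also transcribed in other cells of muscle, Fyn in leukocytes among them. Dnaja3, which binds MuSK, was called higher with FPKM (limma, adjusted p = 0.0037) and not with size factors (0.802).

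In the postsynaptic scaffold, 5 of 12 tested genes were called higher and 1 lower, and 1 higher and 5 lower with size factors. Shares over all tested genes were 41.6% and 11.7%, and 21.1% and 29.9% with size factors. The median log2 change of the list was 0.05 with FPKM and -0.24 with size factors. Scn4a, the muscle sodium channel that is concentrated in the junctional folds, fell to 65.8 ± 5.95 FPKM in HSA-NRTN, against 91.6 ± 2.47 FPKM in WT (SD, n = 3 each; limma, log2 change -0.47, adjusted p = 0.0017; -0.77 with size factors). Sntb2, a syntrophin, rose under both scalings (limma, log2 change 0.58, adjusted p = 0.0046; 0.37 with size factors). Utrn and Plec were also called higher with FPKM, and Dtna, Dag1 and Ky were among those called lower with size factors. These 5 were named after their values were seen. Prkar1a and Macf1 were called higher with FPKM (limma, adjusted p = 0.0029 and 0.0249) and not with size factors (0.202 and 0.286).

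Among 11 tested neuregulin receptors and transcription factors of the junction, 5 were called higher and 1 lower, and 1 and 1 with size factors. Shares over all tested genes were 41.6% and 11.7%, and 21.1% and 29.9% with size factors. The median log2 change of the list was 0.23 with FPKM and 0.0046 with size factors. The lower one was Myf6, a myogenic factor of mature fibres, under both scalings (named after its values were seen). Gabpb2, a subunit of the GABP complex that binds the N-box, rose under both (limma, log2 change 0.42, adjusted p = 0.0034; 0.21 with size factors). Gabpa, its DNA-binding subunit, was called higher with FPKM (log2 change 0.23, limma adjusted p = 0.0392) and not with size factors (-0.04, adjusted p = 0.680). Etv5, another ETS factor of synaptic nuclei, was at 4.66 ± 0.513 FPKM in HSA-NRTN and 3.91 ± 0.148 FPKM in WT and was not called (limma, adjusted p = 0.0772). Tcf3, Erbb3 and Myf5 were called higher with FPKM (limma, adjusted p = 0.0180, 0.0215 and 0.0276) and lost the call with size factors.

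Of 11 tested genes of the denervation response, 4 were called higher (Ampd3, Dach2, Cdkn1a and Fbxo30) and 1 lower (Myh8), and 2 and 4 with size factors. Shares over all tested genes were 41.6% and 11.7%, and 21.1% and 29.9% with size factors. The median log2 change was 0.07 with FPKM and -0.14 with size factors. Those lower with size factors besides Myh8 were Hdac4, Trim63 and Fbxo32, and these and Cdkn1a were named after their values were seen. Ampd3, an AMP deaminase induced in denervated muscle, rose to 7.51 ± 1.11 FPKM in HSA-NRTN, against 2.72 ± 0.550 FPKM in WT (SD, n = 3 each; limma, log2 change 1.20, adjusted p = 0.00019; 0.96 with size factors). Dach2, a repressor that links activity to Myog, was also called higher (limma, log2 change 0.53, adjusted p = 0.0029; 0.37 with size factors). The list gives no direction for a gene in denervation, so a higher call is not in itself a denervation-like change. Myh8, the perinatal myosin heavy chain, fell to 62.2 ± 5.52 FPKM in HSA-NRTN, against 109 ± 3.93 FPKM in WT (limma, log2 change -0.80, adjusted p = 0.00012). Fbxo30 was called higher with FPKM (limma, adjusted p = 0.0211) and not with size factors (0.855). Runx1, a factor of denervated muscle and of leukocytes, was below the level for testing at 1.18 ± 0.253 FPKM in HSA-NRTN and 0.255 ± 0.0430 FPKM in WT, and with no filter was called higher (limma, log2 change 0.79, adjusted p = 0.0027). Ncam1, the adhesion molecule that spreads along denervated fibres, was at 0.838 ± 0.240 FPKM in HSA-NRTN and 0.838 ± 0.152 FPKM in WT and was not called with no filter (limma, log2 change -0.0040, adjusted p = 0.988).

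**Figure D5:**
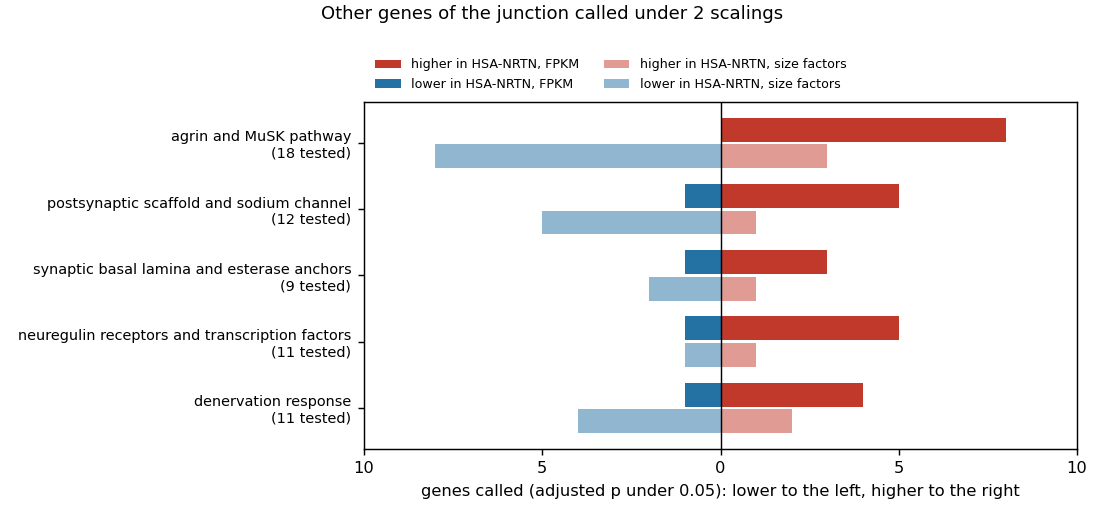
Number of genes called higher (right) or lower (left) in HSA-NRTN in 5 lists of junction genes, with FPKM (upper bar) and size factors (lower, paler bar). The agrin and MuSK list goes to 8 higher and 0 lower with FPKM and to 3 higher and 8 lower with size factors. All tested genes gave 41.6% higher and 11.7% lower with FPKM, and 21.1% and 29.9% with size factors.

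The neuronal-type subunit genes of the receptor family were low, and none of the 7 in the table reached 1 FPKM on average. Chrna2 was at 0.970, 1.23 and 1.11 FPKM in HSA-NRTN and 0.356, 0.419 and 0.532 FPKM in WT. Chrna5 had 23, 39 and 24 reads in HSA-NRTN and 1, 1 and 3 reads in WT. In both genes every HSA-NRTN library lay above every WT library, as in 47.0% of the tested genes, to which neither belongs. Both were called higher with no filter (limma, adjusted p = 0.0052 for Chrna2 and 0.00053 for Chrna5). Of the 7 genes 2 were thus called higher and 0 lower, where 5597 of all 25344 genes were called higher and 1271 lower. Chrna2 and Chrna5 were named after their values were seen.

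The profiles most like 3 of the members were taken over the 6 libraries by the Pearson correlation of log2(FPKM + 1), given as a description, since the libraries share their scaling and their groups. For Chrna1 they were Wdr20, Taz and Wbp1 (r = 0.998, 0.997 and 0.997). Among those of Chrne were Acbd4 and Klhl33 (r = 0.987 and 0.974). For Musk they were Mycbp2, Nfatc2 and Gclc (r = 0.997, 0.991 and 0.989). Nfatc2, a transcription factor controlled by calcineurin, was at 1.44, 1.57 and 1.52 FPKM in HSA-NRTN libraries 1, 2 and 3 and at 1.44, 1.92 and 2.08 FPKM in WT libraries 1, 2 and 3, with WT 1 among the HSA-NRTN values as for Musk.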

How the data were processed

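Per the labels' protocols, TRI reagent served to isolate total RNA and a TruSeq RNA kit to build the libraries. The submitters' processing notes name Cufflinks, Cuffdiff, HTSeq, HISAT2 and DESeq2 and the build GRCm38, without versions or settings. The deposited table held FPKM per library, which the authors scaled by library totals. It also held the authors' mean signal of scaled reads, the authors' log2 fold changes with SE, a test score and p-values, all made by the authors. The header does not name FPKM. With exon lengths of GENCODE M21 and the mean of scaled reads, read counts and size factors could be recovered: of 127467 non-zero values, 100% came out whole to within 0.01 read.

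The main test, limma 3.58.1 in R 4.3.3 with a mean-variance trend, was run on log2(FPKM + 1) for the 10755 genes averaging 1 FPKM or more, without a block, adjusted by Benjamini-Hochberg; fold changes on this scale understate those of low genes. "Size factors" means FPKM rescaled by median-of-ratios factors. Ratios were tested with scipy 1.17.1 (exact permutation, two-sided). The fits were also run on simulated reads built without the composition shift seen here, so that run does not bear on the choice of scaling. Alternatives were other pseudocounts, filters and scalings, limma-voom on recovered reads, a replicate block and leaving out each library. Named were all members, for each list the 4 called genes of smallest p, the 3 profiles most like 3 members, and genes marked as chosen after their values were seen; some genes that this rule or these counts cover are not reported here. Colq, Bche, Gabpa and Etv5, Runx1 and Ncam1 belong to the lists and were also chosen after their values were seen. Of 8 muscle fibre markers 2 were called higher and 4 lower (1 and 5 with size factors), and of 3 tested satellite cell markers 1 and 1 under either scaling. The members and lists were chosen with earlier results of these data known. Libraries sharing a number did not deviate together (correlations of 0.0828, -0.170 and 0.188), so numbers were not used as pairs.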

Additional observations from a re-analysis of the deposited data

How the results depend on the processing

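Chrna1 and Ache kept their direction and call in every alternative that tested them, with log2 changes from 0.35 to 0.75 and from -1.16 to -0.72, and Chrnb1 did so from -0.89 to -0.49. Chrnd lost its call with quantile normalization only. Members called higher numbered 4 in the main test, 2 with no filter, 2 with size factors, 2 with limma-voom, 1 with quantile normalization and 0 with a minimum of 5 FPKM, where 4 members were tested. Members called lower numbered 2 in the main test, 2 with no filter, 2 with a minimum of 5 FPKM and 4 with size factors. They numbered 3 with quantile normalization and 3 with limma-voom, in both cases Ache, Chrnb1 and Chrne. Leaving out 1 library gave 2 to 4 higher and 2 to 4 lower: 2 higher without HSA-NRTN 2 or WT 2, and 4 lower without WT 1. Of all tested genes 4476 were called higher and 1255 lower, against 2264 and 3218 with size factors, 2377 and 2889 with quantile normalization, and 2503 and 3076 with limma-voom. The stricter filter gave 2023 higher and 937 lower of 5395 genes, and no filter 5597 and 1271 of 25344. Without 1 library the counts ran from 3560 to 4600 higher and from 1007 to 1194 lower. They were 3586 and 1030 without HSA-NRTN 2, 3615 and 1039 without WT 2, and 4309 and 1194 without WT 1. A replicate block gave 4309 and 1212. Rapsn, at -1.4e-05 in the main test, was at 0.000221 with a pseudocount of 0.1 and at -0.064 to 0.098 without 1 library. With a replicate block, which the numbers do not justify, Chrne was called lower (limma, adjusted p = 0.0343) and Dok7 lost its call (0.0504), with 3 members higher and 3 lower. The cause was not tested. With 7 WT reads of Chrng, depth limits any fold for that gene.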
